A study of Homo sapiens with 4 samples.

Results

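The genes described here are the protein-coding ZNF genes of chromosome 19, the zinc finger genes whose symbol is ZNF followed by digits alone. They were found by symbol, gene type and chromosome, with no use of their expression, and number 240 of the 60675 genes counted. RNA sequencing was carried out on 4 libraries of LNCaP cells, an androgen-responsive prostate cancer cell line that grew from a lymph node metastasis. All 4 cultures received 1 nM R1881, a synthetic androgen, for 72 h, in hormone-depleted serum. In 2 libraries the cells received R1881 and vehicle (R1881 + vehicle) and in 2 they received R1881 and 50 µM CPI-455 (R1881 + CPI-455), an inhibitor of the KDM5 family of histone demethylases, which remove methyl groups from H3K4. No library without R1881 was analysed here. LNCaP is a single cell line and the methods call the replicates biological without saying how the cultures were separated, so the p-values measure the spread between these libraries. The comparison asks how inhibition of the KDM5 family changed the transcripts of these genes, and how the change was placed along the chromosome.

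Zinc finger proteins of the C2H2 kind bind DNA through a row of finger repeats, each folded around a zinc ion held by a pair of cysteines and a pair of histidines. Most of those on human chromosome 19 also carry a KRAB domain, which binds the corepressor TRIM28 (KAP1). TRIM28 brings in the histone methyltransferase SETDB1, which places H3K9me3, a repressive mark, and many KRAB proteins silence transposable elements in this way. The genes arose by tandem duplication and stand in clusters, and the exons that encode their fingers are themselves known to carry H3K9me3.

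A pattern for the KRAB domain was found in the translated coding sequence of 196 of the 240 genes, and C2H2 finger matches per protein had a median of 12, from 1 to 36 in ZNF208. Because the genes arose by duplication, part of their sequence may be repeated elsewhere on the chromosome. Runs of 50 exon bases were searched for a second copy anywhere on chromosome 19, on either strand. Copies inside the same gene, in other genes and between genes counted alike. The median share of such repeated runs was 2.15%, and the highest was 46.4% in ZNF98. A total of 176 genes had less than 5% of such sequence. Exon bases were shared with another gene by 132 of the 240. Fragments with more than 1 alignment or gene were discarded by the counting, and strand was ignored, so counts of these 132 genes, and of those with much repeated sequence, are less certain.

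The similarity is shown by 1 finger repeat each from 4 neighbours in one cluster, taken from GENCODE 44 coding sequence on GRCh38, 5′ to 3′ on the coding strand. The first pair, ZNF841 at chr19:52066760-52066843 (reverse strand) and ZNF83 at chr19:52614115-52614198 (reverse strand), rose with CPI-455. The other pair, ZNF528 at chr19:52415495-52415578 (forward strand) and ZNF28 at chr19:52800777-52800860 (reverse strand), fell. The capitals mark the codons of the zinc-binding cysteines and histidines.
ZNF841: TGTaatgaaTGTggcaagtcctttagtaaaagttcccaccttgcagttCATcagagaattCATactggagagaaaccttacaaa
ZNF83: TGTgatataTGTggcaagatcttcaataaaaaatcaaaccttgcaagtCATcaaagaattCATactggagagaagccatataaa
ZNF528: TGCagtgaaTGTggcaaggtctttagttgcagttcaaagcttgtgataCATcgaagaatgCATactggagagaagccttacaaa
ZNF28: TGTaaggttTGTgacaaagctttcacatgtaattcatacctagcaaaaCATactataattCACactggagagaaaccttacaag
The 84-base repeats of the ZNF841 and ZNF83 pair had 79.8% of bases in common. ZNF841 and ZNF528, which moved in opposite directions, had 78.6% in common, and ZNF528 and ZNF28, which both fell, had 66.7%.

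RefSeq promoters (GRCh38.p14, 250 bases before to 50 after the start) were matched by symbol for 210 of the 240 genes. The motif CCGGAAG, which is the core recognised by ETS family factors, was searched on both strands and was present in 44.3% of these promoters. It was present in 10.7% of all 27305 promoters in the RefSeq table, in 14.4% of those of protein-coding genes and in 37.1% of those of ZNF genes on other chromosomes. Of the 105 matches in members, 66.7% lay within 25 bases of the start, compared with 34.5% of all matches in the table. The TATAAA motif was in 1.9% of the members' promoters and in 9.56% of those of protein-coding genes, on either strand. The 150 bases around the start (120 before it and 30 from it) are given for the 2 genes with the largest fold decrease and the 2 with the largest increase among the well-counted genes, read along the gene, with the motif in capitals. They lie at chr19:57578882-57579031 (reverse strand), chr19:52397729-52397878 (forward strand), chr19:52095736-52095885 (reverse strand) and chr19:52690467-52690616 (reverse strand).
ZNF416: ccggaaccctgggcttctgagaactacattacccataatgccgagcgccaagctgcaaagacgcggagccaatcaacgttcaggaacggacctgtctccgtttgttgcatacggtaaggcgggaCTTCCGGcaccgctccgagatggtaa
ZNF528: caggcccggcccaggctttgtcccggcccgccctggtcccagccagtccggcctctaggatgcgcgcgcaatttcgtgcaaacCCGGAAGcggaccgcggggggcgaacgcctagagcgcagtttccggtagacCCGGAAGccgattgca
ZNF841: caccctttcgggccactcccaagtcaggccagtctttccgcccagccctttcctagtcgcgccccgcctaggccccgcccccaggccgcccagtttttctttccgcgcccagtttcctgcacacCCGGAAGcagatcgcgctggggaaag
ZNF83: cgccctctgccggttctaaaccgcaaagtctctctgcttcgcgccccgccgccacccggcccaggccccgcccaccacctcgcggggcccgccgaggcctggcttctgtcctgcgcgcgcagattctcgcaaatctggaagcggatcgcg
ZNF528 held the motif on both sides of its start and ZNF416, ZNF528 and ZNF841 held it just after the start, whereas the ZNF83 stretch held none. Genes that fell and rose were therefore both found with it. Among the genes tested, the median log2 fold change was -0.91 for the 82 with the motif, of which 32 were called lower and 2 higher, and -0.57 for the 103 without it, of which 33 were called lower and 8 higher. Over all genes tested, 21.3% were called lower and 21.0% higher. The difference between genes with and without the motif was not tested.

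Total counts per library were 19623553 and 20690819 with R1881 + vehicle, and 9522920 and 5401588 with R1881 + CPI-455. In that order mitochondrial transcripts were 2.43, 1.91, 1.24 and 0.967% of counts, and the nuclear RNA MALAT1 was 0.114, 0.0884, 4.95 and 6.49%. Depth and RNA composition thus differed along with the treatment and cannot be told apart from it. Log2 CPM of the replicates correlated across all genes tested with r = 0.993 (vehicle) and 0.946 (CPI-455). The 9 luminal markers of LNCaP were detected in all libraries, with a summed CPM of 957 and 883 after vehicle and 383 and 438 after CPI-455. Of these, 6 were called lower and 0 higher, though KLK2 rose under 2-fold (0.56). The 13 markers of other cell types summed to 16 to 23.4 CPM, and 4 of them could be tested. The stromal COL1A1 was called higher (1.00, FDR = 0.0195) and the neuroendocrine CHGA lower (-1.32, FDR = 0.0176). The other neuroendocrine marker, SYP (0.69, FDR = 0.106), and the endothelial VWF (-2.07, FDR = 0.0902) were not called. Of all genes, 21.3% were called lower and 21.0% higher. Only 1 marker, the basal keratin KRT5, was at 0 in every library. In bulk RNA, fewer expressing cells and less RNA per cell cannot be told apart.

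As a group, the chromosome 19 ZNF genes took a smaller share of the counts with CPI-455. They held 0.532 and 0.53% of all counts in the vehicle libraries and 0.355 and 0.345% in the CPI-455 libraries. At least 1 count was found for 233 and 232 genes in the vehicle libraries, and for 217 and 203 genes after CPI-455, where depth was lower. Of the 240 genes, 210 had enough counts to be tested. Of these, 187 reached the count minimum in every library, 19 reached it in both vehicle libraries but not in both CPI-455 libraries, and 2 reached it in both CPI-455 libraries but not in both vehicle libraries. Of the 19, 7 were below it in both CPI-455 libraries and 12 in 1 of them. The other 30 never exceeded 21 counts in a library and 4 of them were at 0 throughout. The median normalized count of the genes tested was 17.4 and 17.2 CPM (counts scaled to library size, with TMM factors) with vehicle and 9.39 and 9.12 CPM with CPI-455.

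A gene was called when its FDR (edgeR quasi-likelihood test, Benjamini-Hochberg adjusted over all 17600 genes tested) was below 0.05 and its change was at least 2-fold. With CPI-455, 74 of the 210 genes (35.2%) were called lower and 11 (5.24%) were called higher. Among all genes tested, 42.4% were called, 21.3% lower and 21.0% higher. Without the fold minimum, 99 were lower and 20 were higher, and over all genes 32.8% were lower and 29.8% higher. The median log2 fold change (CPI-455 over vehicle) was -0.64 (interquartile range -1.47 to 0.13) in these 210 genes, and -0.04 over all genes. Over protein-coding genes alone it was -0.21, with 24.4% called lower and 15.6% called higher. Both CPI-455 values lay below both vehicle values in 126 genes and above them in 30, compared with 42.8% and 39.1% of all genes. Of the 125 genes not called, 34 passed the FDR with a change under 2-fold. The 19 genes tested only through the vehicle libraries could count mainly towards the lower side. With at least 10 counts required in every library, 55 members were called lower and 10 higher, beside 19.6% and 21.9% of all genes.

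ZNF genes on other chromosomes moved in the same direction. Of the 216 tested there, 89 were called lower and 17 higher, with a median of -0.72. The other protein-coding genes of chromosome 19 had the opposite balance, with 130 of 818 called lower, 218 called higher and a median of 0.30. Exons of the chromosome 19 ZNF genes were long and low in GC, with medians of 4962 bases and 43.3%, whereas those of the other chromosome 19 genes had medians of 3103 bases and 59.2%. When the trend of all genes with exon length and GC content was removed, 54 members were called lower and 18 higher, with a median of -0.36. The median of the ZNF genes elsewhere was then -0.45, that of the other chromosome 19 genes 0.14 and that of protein-coding genes without a ZNF name -0.04. Within the members alone, log2 fold change showed little relation to exon GC content (Spearman's rho 0.08), exon length (0.01) or the number of fingers (-0.07), across 210 genes that are not independent. In 3 groups of 70 genes from short to long exons the medians were -0.70, -0.72 and -0.24, and from few to many fingers they were -0.37, -0.84 and -0.64. Protein-coding genes without a ZNF name in the same length ranges had medians of 0.03, -0.32 and -0.38. From low to high exon GC content the members had medians of -0.78, -0.72 and -0.54. Protein-coding genes without a ZNF name in those GC ranges had -0.48, -0.34 and -0.03. Members with the KRAB pattern and without it had medians of -0.65 (173 tested) and -0.64 (37 tested).

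**Figure D1:**
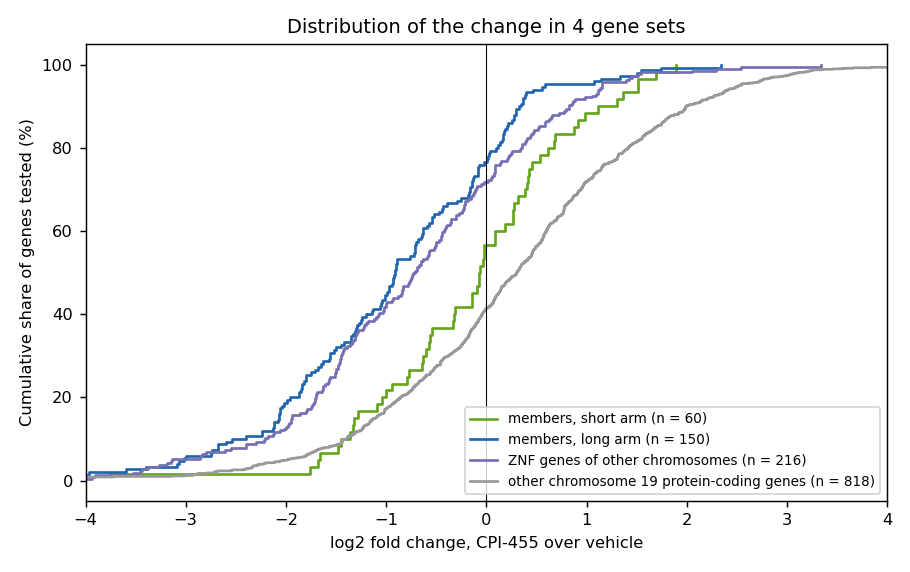
Cumulative share of genes tested (vertical axis, %) by log2 fold change, CPI-455 over vehicle (horizontal axis, shown from -4 to 4), for the ZNF genes of each arm of chromosome 19, the ZNF genes of other chromosomes and the other protein-coding genes of chromosome 19. The curve of the 150 long-arm ZNF genes lies to the left, close to that of the ZNF genes elsewhere, and that of the 60 short-arm genes lies nearer to 0.

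**Figure D2:**
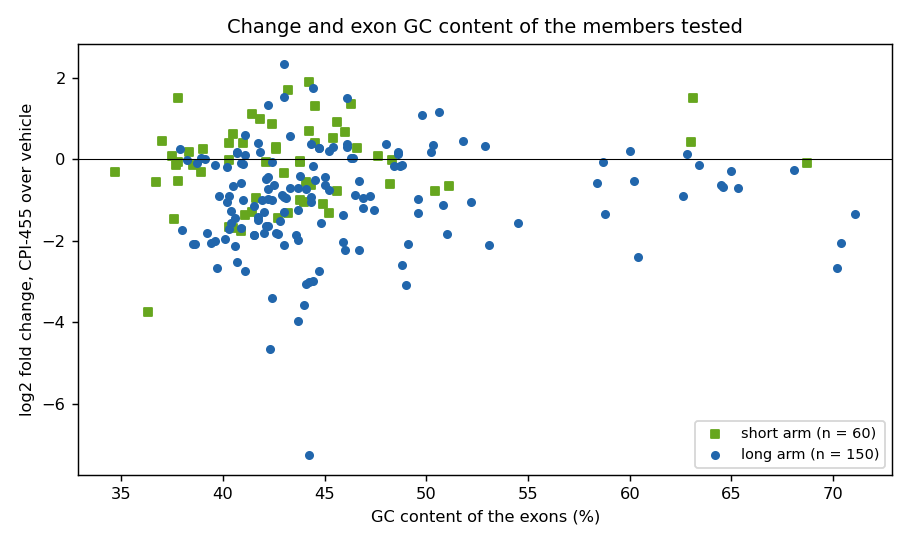
Log2 fold change (vertical axis) against exon GC content (horizontal axis, %) for each of the 210 genes tested, by chromosome arm. Points of both signs are found across the range, and most genes lie between 35 and 50% GC.

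Along the chromosome, the decrease was concentrated on the long arm. The largest gap between neighbouring members, 6.1 Mb between ZNF254 and ZNF536, holds the centromere and parts 83 genes of the short arm from 157 of the long arm. On the short arm, 10 of 60 genes tested fell and 6 rose, and their median was -0.07 (log2). On the long arm, 64 of 150 fell and 5 rose, and their median was -0.91. The summed CPM of the short-arm genes was 1266 and 1302 after vehicle and 1416 and 1408 after CPI-455. That of the long-arm genes was 3669 and 3715 after vehicle and 2383 and 2286 after CPI-455, so the sum was higher with CPI-455 in both libraries on the short arm and lower in both on the long arm. Without ZNF266, a highly expressed gene that rose, the short-arm sums were 1189 and 1226 for vehicle and 1199 and 1234 for CPI-455, which overlapped. The other protein-coding genes of the chromosome were divided at the start of ZNF536 rather than at the centromere itself. Their medians were 0.30 before it (406 tested) and 0.31 from it onwards (412 tested). With the length and GC trend removed, the short arm had 3 genes called lower, 11 higher and a median of 0.29, and the long arm had 51, 7 and -0.64. Of all genes, 18.3% were then called lower and 20.6% higher. With all libraries thinned to the shallowest, the medians were 0.07 and -0.73. With at least 10 counts in every library, 8 of 49 genes on the short arm and 47 of 124 on the long arm were called lower. The short-arm median also changed sign with the scaling, at 0.11 with upper-quartile factors and -0.26 with library totals, where the long-arm median was -0.73 and -1.10. With no filter on low counts the medians were -0.49 (80 genes) and -1.06 (156 genes). The number of short-arm genes called lower was 6 without the second vehicle library and 16 without the second CPI-455 library. The division by arm was made after values had been seen, and the difference between the arms was not tested.

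**Figure D3:**
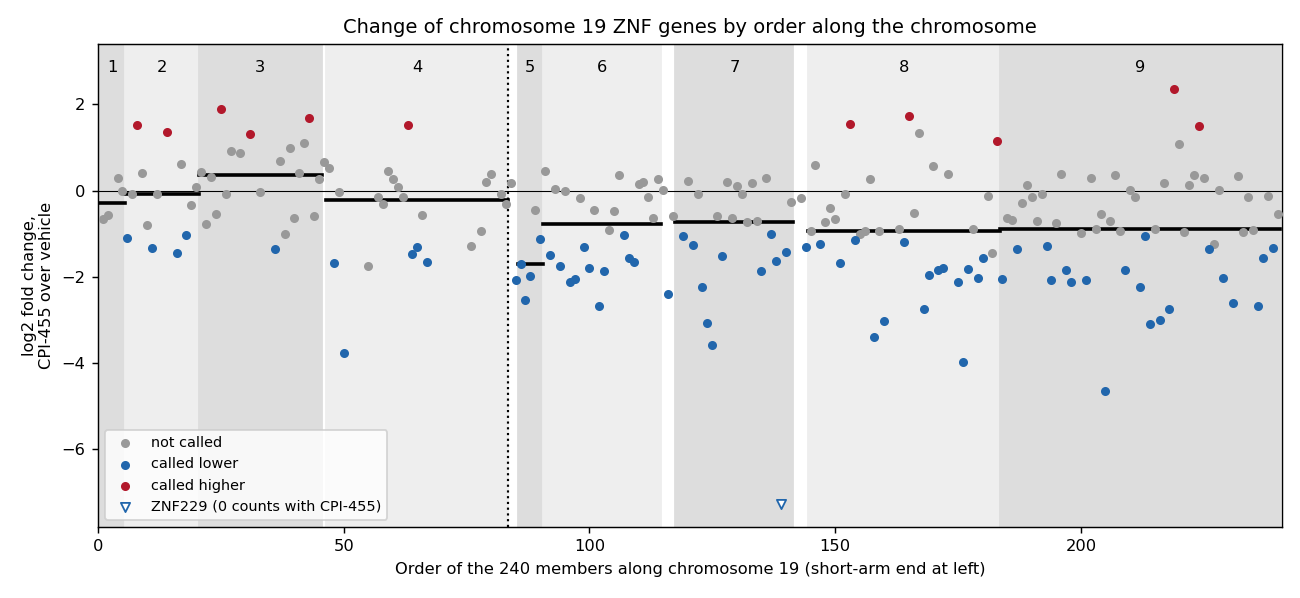
Log2 fold change (vertical axis) of the 210 genes tested, by their order among the 240 along chromosome 19 (horizontal axis). Bands numbered 1 to 9 are the position groups, black lines their medians, the dotted line the gap that holds the centromere, and the triangle the fitted value of ZNF229, which had no count with CPI-455. Medians of groups 1 to 4 lie between -0.30 and 0.36 and those of groups 5 to 9 between -1.71 and -0.72.

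Runs of at least 5 members with less than 1 Mb between neighbours formed 9 position groups that held 231 genes. For comparison with the groups, 21.3% of all genes tested were called lower and 21.0% higher. On the short arm, group 1 (ZNF554 to ZNF77, chr19:2819874-2944971) had 4 genes tested and none called. Group 2 (ZNF557 to ZNF846, chr19:7069444-9793180) had 4 of 13 called lower and 2 higher, with a median of -0.09. Group 3 (ZNF653 to ZNF791, chr19:11483427-12640098) was the only group with a median above 0, at 0.36, with 1 of 20 called lower and 3 higher. Group 4 (ZNF101 to ZNF254, chr19:19668796-24129961), a long cluster with repeated sequence and few other genes, had 5 of 22 called lower and 1 higher, with a median of -0.23. In this group 15 of the 37 genes had too few counts to be tested, of 30 such genes in all. The medians of groups 2 and 4 were close to 0 and changed sign when the length and GC trend was removed, to 0.07 and 0.18. With no filter on low counts they were -0.49 and -1.28, and that of group 1 was -0.73.

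On the long arm, each of the 5 groups had a median below 0. Group 5 (ZNF302 to ZNF792, chr19:34677639-34964049) had 4 of 5 genes called lower and a median of -1.71. Group 6 (ZNF565 to ZNF573, chr19:36182060-37817300) had 11 of 24 called lower, and group 7 (ZNF575 to ZNF296, chr19:43525497-45076588) had 11 of 23. No gene was called higher in groups 5, 6 and 7. Group 8 (ZNF175 to ZNF331, chr19:51571298-53580269) had 15 of 36 called lower and 3 higher, with a median of -0.94. Its summed CPM was nevertheless alike in all libraries, at 617 and 611 after vehicle and 597 and 614 after CPI-455, and its genes ZNF83, ZNF841 and ZNF331 rose. The last group, group 9 (ZNF628 to ZNF446, chr19:55476332-58481230), had 20 of 55 called lower and 2 higher, with a median of -0.89. Other protein-coding genes inside the spans, which include zinc finger genes with other symbols, had a median of 0.71 in group 2 (33 tested), -0.74 in group 6 (5 tested), 0.39 in group 7 (18 tested) and -0.56 in group 9 (23 tested).

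**Figure D4:**
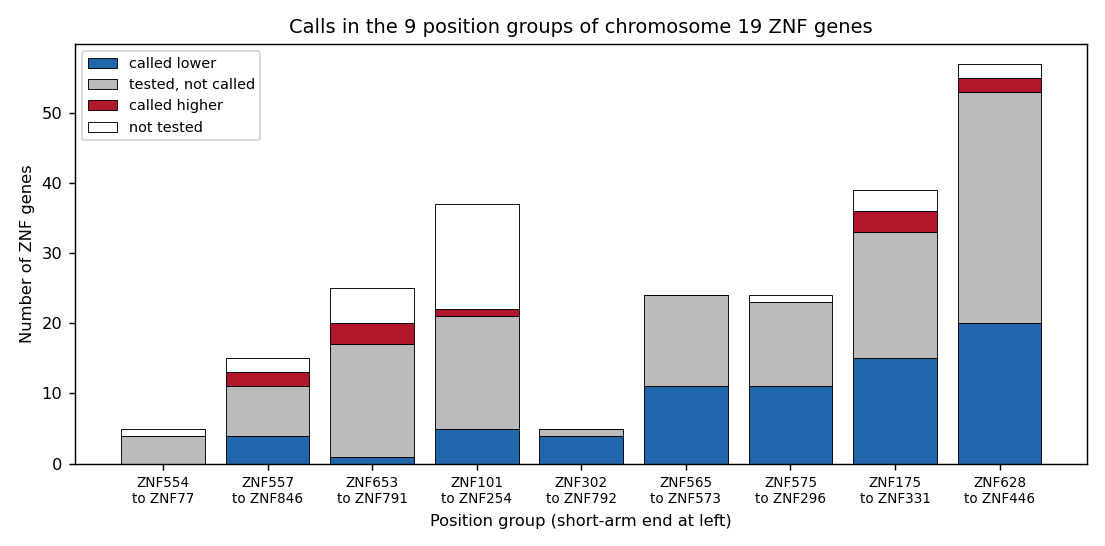
Number of ZNF genes (vertical axis) called lower, not called, called higher and not tested in each of the 9 position groups, named by their first and last gene (horizontal axis, in chromosome order). Genes called lower (blue) make up a larger part of every bar from ZNF302 onwards than of the 4 bars before it, and 15 genes of the ZNF101 to ZNF254 group were not tested.

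The change varied between neighbouring genes. The log2 fold changes of adjacent members correlated with Spearman's rho of 0.09 (209 pairs, which share genes), and the longest unbroken runs called lower were 4 genes. One was ZNF112, ZNF285, ZNF229 and ZNF180 within group 7, and the other was ZNF507, a scattered gene, with ZNF302, ZNF181 and ZNF599 of group 5. The run in group 7 depends on ZNF229, which passed the count filter only through the vehicle libraries. In 5 pairs of adjacent members, 1 gene was called lower and the other higher. These pairs are named because of their values. ZNF701 fell from 9.09 and 8.01 CPM to 3.82 and 3.57 CPM (log2 fold change -1.20, SE 0.31, FDR = 0.00789), while the next gene, ZNF83, rose. ZNF616 fell from 21.7 and 24.3 CPM to 9.67 and 11.3 CPM (-1.14, SE 0.21, FDR = 0.00121) beside ZNF841, which rose. ZNF493 fell from 17.5 and 20.4 CPM to 6.97 and 6.54 CPM (-1.48, SE 0.24, FDR = 0.000503) beside ZNF738, which rose. The other pairs were ZNF331 with ZNF628, which stand in different position groups, and ZNF551 with ZNF154. ZNF154, whose promoter is known to be methylated in many tumours, lies within ZNF551 on the other strand and had 6 and 13 counts in the vehicle libraries and 18 and 13 in the CPI-455 libraries, so its rise rests on few counts and it passed the filter only through the CPI-455 libraries.

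The 8 genes with the largest fold decrease among the well-counted genes (a mean of at least 2 log2 CPM) were all on the long arm, 4 of them in group 9. The mean covers both groups, so larger falls with few counts after CPI-455 were left out. Examples, named for their values, are ZNF547 (195 and 210 counts, then 1 and 4, -4.65) and ZNF155 (169 and 158, then 9 and 0, -3.59). On the short arm, ZNF253 (45 and 41, then 2 and 0, -3.76) was left out too. ZNF416, a KRAB gene with 11 finger matches, was at 21.1 and 18.8 CPM with vehicle and at 2.7 and 1.78 CPM with CPI-455, which is 8.51-fold lower (log2 fold change -3.09, SE 0.29, FDR = 1.98e-05). ZNF528 was at 12.3 and 15.8 CPM and fell to 0.9 and 2.97 CPM (-3.02, SE 0.45, FDR = 0.000307), the latter from 8 and 15 counts. ZNF134, which had no KRAB pattern, was at 55.9 and 64.2 CPM and fell to 6.63 and 8.72 CPM (-3.00, SE 0.20, FDR = 2.67e-06). The similar fold changes of these genes follow from their place at the top of the ranking, and the vehicle level of ZNF134 was severalfold higher. ZNF551 fell from 28.9 and 28.8 CPM to 2.7 and 6.54 CPM (log2 fold change -2.75), and ZNF28 from 25.6 and 23.3 CPM to 3.15 and 4.36 CPM (-2.74). ZNF829 fell from 32.5 and 36.3 CPM to 4.95 and 5.95 CPM (-2.68) and ZNF329 from 32.7 and 38.3 CPM to 7.65 and 3.37 CPM (-2.60). ZNF181 fell from 34.3 and 38.7 CPM to 7.53 and 4.56 CPM (-2.53, SE 0.24). In each of the 8 genes, which were chosen for the size of their decrease, the CPI-455 values lay far below both vehicle values.

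Lower counts limited the fold change of some further genes. ZNF229 in group 7 had 25 and 33 counts in the vehicle libraries and no count in the others. It was thus tested only through the vehicle libraries and could hardly be called other than lower. Set against 3 counts in the shallower CPI-455 library it was at least 2.26-fold lower, and the medians given above do not move when this bound is used.

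**Figure D5:**
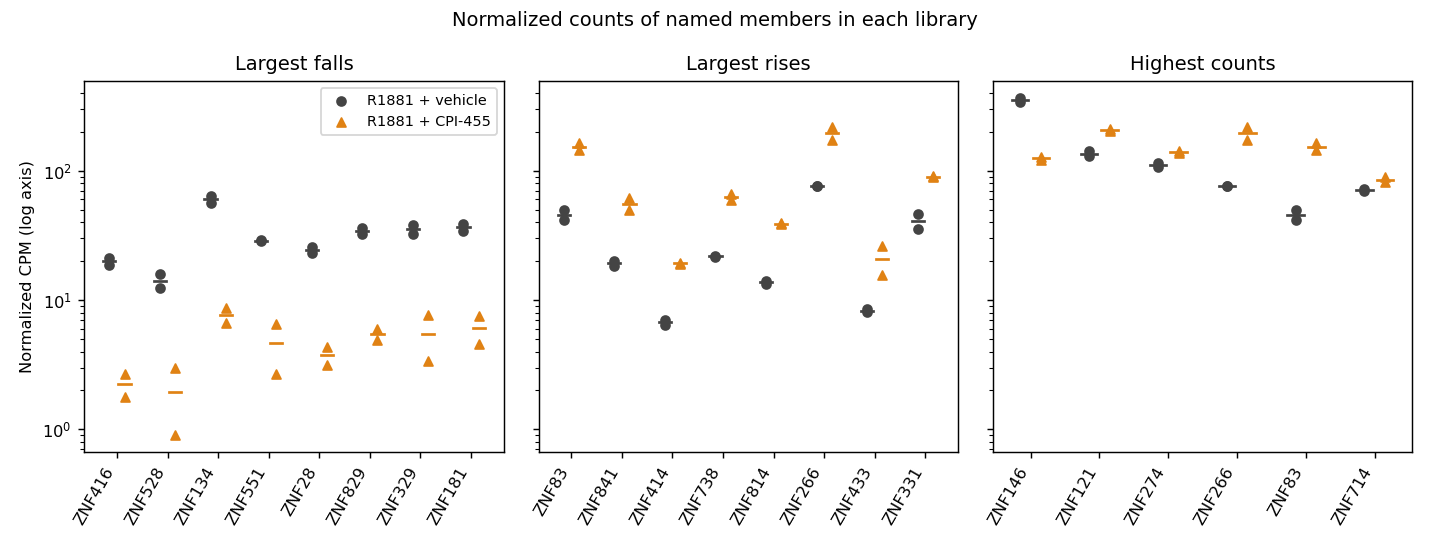
Normalized CPM in each library (log vertical axis) for the 8 genes with the largest decrease, the 8 with the largest increase and the 6 with the highest counts, with circles for R1881 + vehicle, triangles for R1881 + CPI-455 and bars for the mean of 2 libraries. The groups do not overlap in any gene shown, but the genes with the largest decrease and increase were chosen for their change. Of all genes tested, 42.8% (lower) and 39.1% (higher) also did not overlap. ZNF146 falls while ZNF121, ZNF266 and ZNF83 rise.

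The 8 well-counted genes with the largest increase were spread over both arms, with 4 on each. ZNF83, which has fingers but no KRAB pattern, rose from 49.9 and 41.9 CPM to 163 and 144 CPM, 3.34-fold (log2 fold change 1.74, SE 0.14, FDR = 6.6e-06). ZNF841 rose from 19.9 and 18.5 CPM to 61.8 and 49.6 CPM (1.54, SE 0.17, FDR = 4.26e-05), and it stands 12 genes before ZNF83. ZNF414 in group 2 rose from 7.01 and 6.46 CPM to 19 and 19.4 CPM (1.51, SE 0.23, FDR = 0.000341). ZNF414 had 3 finger matches and an exon GC content of 63.1%, so it is unlike most of these genes. ZNF738 rose from 22.1 and 21.7 CPM to 59.5 and 65.6 CPM (1.51), and ZNF266 from 76.7 and 75.6 CPM to 217 and 173 CPM (1.36). ZNF814 rose from 14.1 and 13.4 CPM to 38.5 and 39.5 CPM (1.5), but 25.2% of its exon sequence lay in repeated runs. ZNF433 rose from 8.1 and 8.47 CPM to 15.7 and 26 CPM (1.31, SE 0.27, FDR = 0.00246), with unequal replicates. Without the second CPI-455 library its log2 fold change was 0.88 and it was not called. ZNF331, which is imprinted in some tissues, rose from 46.5 and 35.2 CPM to 90.5 and 90.0 CPM (1.15, SE 0.16, FDR = 0.000195). Without the second vehicle library its value was 0.93, under the fold minimum, and with library totals alone it was 0.95. ZNF414, ZNF266, ZNF738, ZNF841, ZNF83 and ZNF814 were called higher, and 32 genes were called lower, in every alternative setting of the test. ZNF416 and ZNF528, each with fewer than 10 counts in a CPI-455 library, were not among the 32.

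The genes with the highest counts moved in both directions. ZNF146, a protein that consists of zinc fingers with no KRAB domain, had the highest level of all, also per length of exon (85.2 CPM per kb with vehicle, compared with 25.8 for ZNF581, the next). It was at 340 and 366 CPM with vehicle and fell to 128 and 122 CPM with CPI-455 (-1.5, SE 0.11, FDR = 5.12e-06). ZNF121 had 142 and 129 CPM with vehicle and 203 and 212 CPM with CPI-455 (0.61, FDR = 0.00123), a rise under 2-fold that reached 1.12 and was called with the length and GC trend removed. ZNF714 was at 69.6 and 72.8 CPM and at 81.4 and 89.8 CPM (0.26, FDR = 0.0922), which did not pass the test. Of the 70 genes with the highest mean level, 16 were called lower and 6 higher with a median of -0.15. Of the middle 70, 31 were called lower and 2 higher with a median of -0.90. Of the 70 with the lowest level, 27 and 3 were called with a median of -0.92. Over all genes tested, 21.3% were called lower and 21.0% higher. Members near the count minimum passed it more often through the vehicle libraries alone (19) than through the CPI-455 libraries alone (2). The filter can thus favour genes lower with CPI-455 among the lowest 70, and the contrast by level was not tested.

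Among genes with a known role, ZNF274, which brings SETDB1 to the finger exons of other ZNF genes, was at 107 and 115 CPM with vehicle and 137 and 141 CPM with CPI-455 (0.33, SE 0.11, FDR = 0.0313), a rise under 2-fold. ZNF91, which represses SVA retrotransposons, was at 31.7 and 33.5 CPM and at 42.3 and 31.3 CPM, and the groups overlapped (0.19, FDR = 0.376). ZNF93, which represses LINE elements, had at most 9 counts in a library and was not tested. ZNF43, of the same gene family as ZNF91, fell from 2.46 and 2.24 CPM to 0.562 and 0.991 CPM (-1.66, SE 0.62, FDR = 0.0401), from 5 counts in each CPI-455 library. Its call was lost in the fit without any 1 of 3 libraries, at -1.57 and -1.71 without the first and second vehicle library and -1.26 without the first CPI-455 library, and it was also lost with DESeq2 (-1.62).

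Genes with a role in tumour biology differed among themselves. ZNF382, a candidate tumour suppressor silenced by methylation in several cancers, fell from 24.9 and 27.7 CPM to 5.29 and 7.14 CPM (-2.11, SE 0.24, FDR = 5.21e-05). ZNF420 (APAK), an inhibitor of p53, was at 33.4 and 36.4 CPM and at 17.8 and 19.6 CPM (-0.91, SE 0.17, FDR = 0.00136), below the fold minimum. With library totals alone its value was -1.10 and it was called. ZNF304 was at 22.1 and 26.9 CPM and at 15.2 and 18.8 CPM (-0.54, FDR = 0.0445), a decrease under 2-fold. ZNF350 (ZBRK1), a partner of BRCA1, was at 12.3 and 11.5 CPM and at 4.95 and 14.1 CPM (-0.40, FDR = 0.412), so its CPI-455 replicates disagreed. Its value was 0.22 without the first CPI-455 library, and -1.31 and called without the second. ZNF224, a repressor of the aldolase A gene, was at 19.9 and 17.2 CPM and at 24.9 and 13.9 CPM (0.10, FDR = 0.767), with overlap. The first and last genes of the series along the chromosome, ZNF554 and ZNF446, had log2 fold changes of -0.65 (FDR = 0.0217) and -0.54 (FDR = 0.103) and neither was called.

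TRIM28 and SETDB1, the partners of the KRAB proteins, did not pass the test. TRIM28 was at 267 and 281 CPM with vehicle and 308 and 267 CPM with CPI-455 (0.07, SE 0.11, FDR = 0.614). SETDB1 was at 118 and 117 CPM and at 116 and 97.8 CPM (-0.13, SE 0.13, FDR = 0.386). The groups overlapped for TRIM28 and lay within a few CPM of each other in the nearest libraries for SETDB1. Of 27 genes of the corepressor and H3K9 methylation machinery, 7 were called lower and 2 higher, with a median of -0.13, beside 21.3% and 21.0% of all genes. TASOR of the HUSH silencing complex fell from 193 and 210 CPM to 76.4 and 60.5 CPM (-1.55, FDR = 1.42e-05), whereas its partner MPHOSPH8 rose from 74.9 and 76.7 CPM to 203 and 190 CPM (1.37, FDR = 8.63e-06). The H3K9 methyltransferases SUV39H1 and SUV39H2 fell from 50.9 and 52.2 CPM to 16.8 and 15.1 CPM (-1.69) and from 49.2 and 48.5 CPM to 15.9 and 15.1 CPM (-1.66). The H3K9 methyltransferase EHMT2 rose under 2-fold (0.69, FDR = 0.000832), and EHMT1 did not pass the test (0.05, FDR = 0.742). The other genes called were CBX5, SMARCAD1, NSD1 and UHRF1, which were lower, and ATRX, which was higher.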

How the data were processed

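RNA-seq of 4 LNCaP libraries was analysed, 2 per group, grouped by the sample labels. Per the file headers and the methods, the authors trimmed reads with Trim Galore, aligned them to GRCh38 with STAR and deposited raw fragment counts per gene from featureCounts v1.5.0-p1 on Ensembl 83, without strand and without multi-mapping or multi-gene fragments. RNA selection and strandedness are not given in the sources used here.

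All genes were filtered with filterByExpr (minimum 10 counts), normalized by TMM and fitted with edgeR 4.0.16 in R 4.3.3 (glmQLFit and glmQLFTest, no covariates), and adjusted over 17600 genes. The script was tested on simulated data. Values are TMM-scaled CPM and SE is of the log2 fold change. Precision is set by depth, with 3 counts worth 0.142, 0.137, 0.337 and 0.595 CPM, which covers counting error only. An exact permutation test of 2 against 2 cannot go below p = 0.333 (two-sided) and was not used.

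Members and lists were chosen with earlier results of these data known. Named genes were the 8 largest called changes in each direction at 2 or more mean log2 CPM, the 6 highest, the first and last, 10 with known roles, TRIM28 and SETDB1. Others are named as chosen on their values. Gene types came from GENCODE 44 and promoters from RefSeq. The C2H2 and KRAB patterns were read from translated GENCODE coding sequence, although RefSeq proteins had been planned. Alternatives were other scalings, filters, tests, a length and GC correction, a replicate block, thinning and leaving out each library.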

Additional observations from a re-analysis of the deposited data

How the results depend on the processing

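The direction of the balance, more members lower than higher, was the same under every alternative run, while its size moved. The median log2 fold change of the members was -0.47 with upper-quartile factors, -0.83 with library totals only, -0.87 with no filter, -0.52 with at least 10 counts in every library, -0.56 after thinning, -0.36 with the length and GC trend removed, -0.71 in members with no shared exon base, -0.67 in those with under 5% repeated runs (chosen after seeing the data) and -0.66 to -0.84 with 1 library left out. Relative to the median of all genes (-0.23 with library totals, 0.14 with upper-quartile factors and -0.04 with TMM) it was -0.60, -0.61 and -0.60. A change of scaling moves all genes nearly alike, so these differences could hardly vary. In other settings the difference was -0.39 (length and GC trend removed), -0.46 (no filter) and -0.53 (10 counts in every library). Leaving out 1 library gave 58 to 88 members called lower and 8 to 12 higher, with the spread of the lone library taken from the other group. Calls numbered 45 lower and 6 higher when the test was made against the 2-fold change itself (glmTreat), 20 higher with no minimum fold and 18 higher with the length and GC trend removed (54 lower). With DESeq2, 65 were lower and 11 higher. Over all genes, the shares called lower and higher were 13.4% and 13.9% (glmTreat) and 18.7% and 19.2% (DESeq2). They were 18.3% and 20.6% with the length and GC trend removed. Of the position groups, 8 of 9 had a median below 0, 9 of 10 with a gap of 500 kb and 5 of 6 with 2 Mb. Group 2 turned to 0.08 (upper-quartile factors, and thinning) and 0.07 (length and GC), and group 4 to 0.01 (10 counts in every library), 0.03 (thinning) and 0.18 (length and GC). With no filter, groups 1, 2 and 4 were at -0.73, -0.49 and -1.28.

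The labels number replicates 1 and 2 in both groups. The correlation of the deviations of equal numbers was 0.04 over 2 pairs. So few libraries of unequal depth cannot show whether equal numbers were handled together. With the replicate block, 72 members were lower and 10 higher, and with the block and the length and GC correction 55 and 17, with a median of -0.37 and group 2 and group 4 both at 0.07. In that fit TRIM28 was at -0.05 and SETDB1 at 0.21.

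Small changes of named genes turned sign. TRIM28 was at -0.12 (library totals), -0.08 (no filter), -0.06 (length and GC) and -0.06 (without the first CPI-455 library), and SETDB1 at 0.04 (upper quartile) and 0.22 (length and GC). ZNF91 was at -0.00 (library totals) and -0.08 (without the first CPI-455 library), ZNF224 at -0.09 (library totals), -0.06 (no filter), -0.05 (without the second vehicle library) and -0.43 (without the first CPI-455 library), and ZNF350 at 0.22 (without the first CPI-455 library). With 1 library left out, values reached 0.33 (ZNF91), 0.38 (ZNF224), -1.31 (ZNF350) and 0.13 (TRIM28) at the other end. The causes of these changes were not tested. The depth of the second CPI-455 library limits genes under about 0.595 CPM there.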
